A study of Rattus norvegicus with 12 samples.

Results

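The genes described here are 10 nuclear genes that maintain and express mitochondrial DNA: Tfb2m, Tfb1m, Tfam, Polrmt, Polg, Twnk, Mterf1, Nrf1, Gabpa and Esrra. They were chosen by name, and every non-control probe that the arrays assign to one of them was taken, which gave 15 probes of 45598. All 10 genes passed the filter on dim signals and belong to the 13542 genes tested. The choice was made with the fipronil differences of these arrays known, so those differences are given for the 10 genes as descriptions, without a test.

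The arrays measured total RNA of N27 cells, an immortalised rat line described as dopaminergic and derived from fetal midbrain. Cells of the fipronil group, 6 samples, were exposed to 25 µM fipronil, an insecticide that blocks GABA-gated chloride channels, for 24 hours. Cells of the control group, 6 samples, were left untreated, and it is not stated whether they received a vehicle. It is also not stated whether the samples of a group were separate cultures, so every error covers the variation among these arrays alone and may be purely technical. All 12 samples come from 1 line.

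Each sample occupied 1 one-colour Agilent array, and 3 slides were used. On slide 1 were control replicates 2 and 3 together with fipronil replicates 7 and 8. The other controls, replicates 5 to 8, shared slide 2, and the other fipronil samples, replicates 1 to 4, shared slide 3. Treatment and slide cannot be told apart on slides 2 and 3, and slide 1 alone held both groups. The 75th percentile of the processed signal was 111 to 140 on slide 3, 245 to 279 on slide 1 and 379 to 472 on slide 2, and at least 40.8% of spots were well above background on each array. Among genes that mark dopaminergic neurons, Th (tyrosine hydroxylase) was well above background on 12 of 12 arrays, Aldh1a1 on 8, Slc18a2 and Lmx1b on 2, Nr4a2 on 1, and Slc6a3, Ddc, Pitx3, En1, Foxa2 and Drd2 on 0. Of the astrocyte markers, Aqp4 was so on 1 array and Gfap, Slc1a3, Aldh1l1 and S100b on 0. Among markers of other cells, Cx3cr1 and Cd68 (microglia) and Vwf and Flt1 (endothelium) were so on 12 arrays and Mag (oligodendrocytes) on 8, and their part in the results was not tested.

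Mitochondrial DNA encodes core subunits of the respiratory chain together with the ribosomal and transfer RNAs needed to translate them, and it is transcribed by a machinery made in the nucleus. The single-subunit RNA polymerase POLRMT starts transcription together with TFAM, which bends and packages the DNA, and TFB2M, which helps to melt the promoter. The transcription factors NRF1 and GABP, and the orphan receptor ERRα, act on many nuclear genes of this system, and in neurons the respiratory chain supplies much of the ATP.

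Tfb2m is represented by a pair of probes that differ in signal, and their first 30 of 60 bases, copied from the array files, are shown because the results for Tfb2m rest on the first of them. Per the files, A_42_P479096 lies at 13:95229117-95229176 and A_44_P1112228 at 13:95233210-95233269, both on the minus strand of rn4. The files do not say whether these positions are exonic, intronic or untranslated.
A_42_P479096: agatgaagcgaataatttcctcttaagttg
A_44_P1112228: agttctgtaccccagaaatcattactagtg

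Probe A_42_P479096 was well above background on 12 of 12 arrays, and A_44_P1112228 on 0 of 12, so only the first gave a measurement. Mterf1, listed on the array as Mterf, had 4 probes, of which 2 overlap by 55 bases and differ at 3 of them. The window that contains the differences is shown, with the differing bases in capitals, because RefSeq lists 4 Mterf1 pseudogenes, 2 of them on the same chromosome, and the probes need not read the same transcript.
A_44_P1362575: cttcacaaataAttgaaaCtTcaagggtat
A_44_P1364381: cttcacaaataCttgaaaAtCcaagggtat

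The promoters of these genes were searched on both strands, in the RefSeq windows of build GRCr8 that run from 250 bases before to 50 after each start. The core GCATGCG, a form of the site described for NRF1, occurred in 3.54% of 27457 promoters and in 3 of the 10 members, Tfb2m, Gabpa and Esrra. These matches, with the core in capitals, are printed because NRF1 is itself a member of the group. CCGGAAG, a form of the core described for GABP, occurred in 9.22% of promoters and in 6 members, Tfam, Polrmt, Polg, Twnk, Mterf1 and Gabpa, and the match in Tfam is given as an example.
Tfb2m, chr13:93828622-93828651, minus strand, position -45 from the start: gctaggtcgttcGCATGCGccattcgtaat
Gabpa, chr11:37375252-37375281, plus strand, position 0: actgcactgtacGCATGCGtgctttggcct
Esrra, chr1:213543403-213543432, minus strand, position -115: gccccctgttttGCATGCGcaggccgaccc
Tfam, chr20:17355305-17355334, plus strand, position -56: tcctgctgcagaCCGGAAGtctgggcctcc

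Positions are counted from the start used for the window, which need not be the outer end of the gene. RefSeq places Tfb2m at chr13:93810859-93828678, Gabpa at chr11:37375040-37404060 and Esrra at chr1:213533309-213543432, so their GCATGCG matches lie within these spans. In Tfb2m and Gabpa the GCATGCG match overlaps a match on the opposite strand, shifted by 1 base. The shorter core CGGAAG, which every CCGGAAG match also contains, occurred in 17.4% of promoters and in 7 members, with Tfb2m added to the 6. GGGCGG, the core of the Sp1 box, occurred in 34.9% of promoters and in 7 members, and AAGGTCA, the core bound by ERRα, in 4.37% and in 0 members. These matches describe letters in a window and were not tied to binding.

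All signals below are log2 of the processed signal minus the 75th percentile of the same array, so 0 is the level of that percentile. No signal of one gene is set against that of another, since probes differ in brightness. With bulk RNA, fewer cells and less RNA per cell cannot be told apart.

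Tfb2m, the initiation factor that opens mitochondrial promoters, had its highest and its lowest signals on the same slide. On slide 1 the signals were -1.08 and -1.38 in control replicates 2 and 3, against -2.37 and -2.86 in fipronil replicates 7 and 8. On slide 2 the control arrays gave -1.84, -1.69, -1.71 and -1.87, and on slide 3 the fipronil arrays gave -1.67, -1.93, -1.84 and -1.81. The 8 arrays of slides 2 and 3 thus lay within a narrow band that sat between the slide 1 groups and overlapped neither. The difference on slide 1, with 2 against 2 arrays, was -1.38 ± 0.19 (SE), a signal 2.60-fold lower with fipronil. The SE, here and for other slide 1 differences, is that of the fit with slide as a block, which pools the spread of all 12 arrays. On slide 1 the SD of Tfb2m was 0.21 in controls and 0.34 with fipronil, against 0.09 on slide 2 and 0.11 on slide 3. The difference between slide 3 fipronil and slide 2 control was -0.03, although it was 0.35 after normexp with 75th percentile scaling and -0.24 with median scaling. Over 12 arrays it was -0.48 ± 0.21 (SE, 6 against 6), with means of -1.60 ± 0.31 in controls and -2.08 ± 0.45 with fipronil (SD, n = 6).

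Before any scaling the processed signals of Tfb2m on slide 1 were 132 and 103 in controls and 47.5 and 33.8 with fipronil. On slide 2 they ran from 106 to 145 in controls, and on slide 3 from 29.3 to 43.0 with fipronil, where the whole array was dimmer. The near-equality of slides 2 and 3 therefore appears after 75th percentile scaling and not in the unscaled signal. In the authors' deposited table, on a quantile-normalised log2 scale, the slide 1 controls were at 6.80 and 6.50 and the slide 1 fipronil arrays at 5.49 and 5.13.

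**Figure D1:**
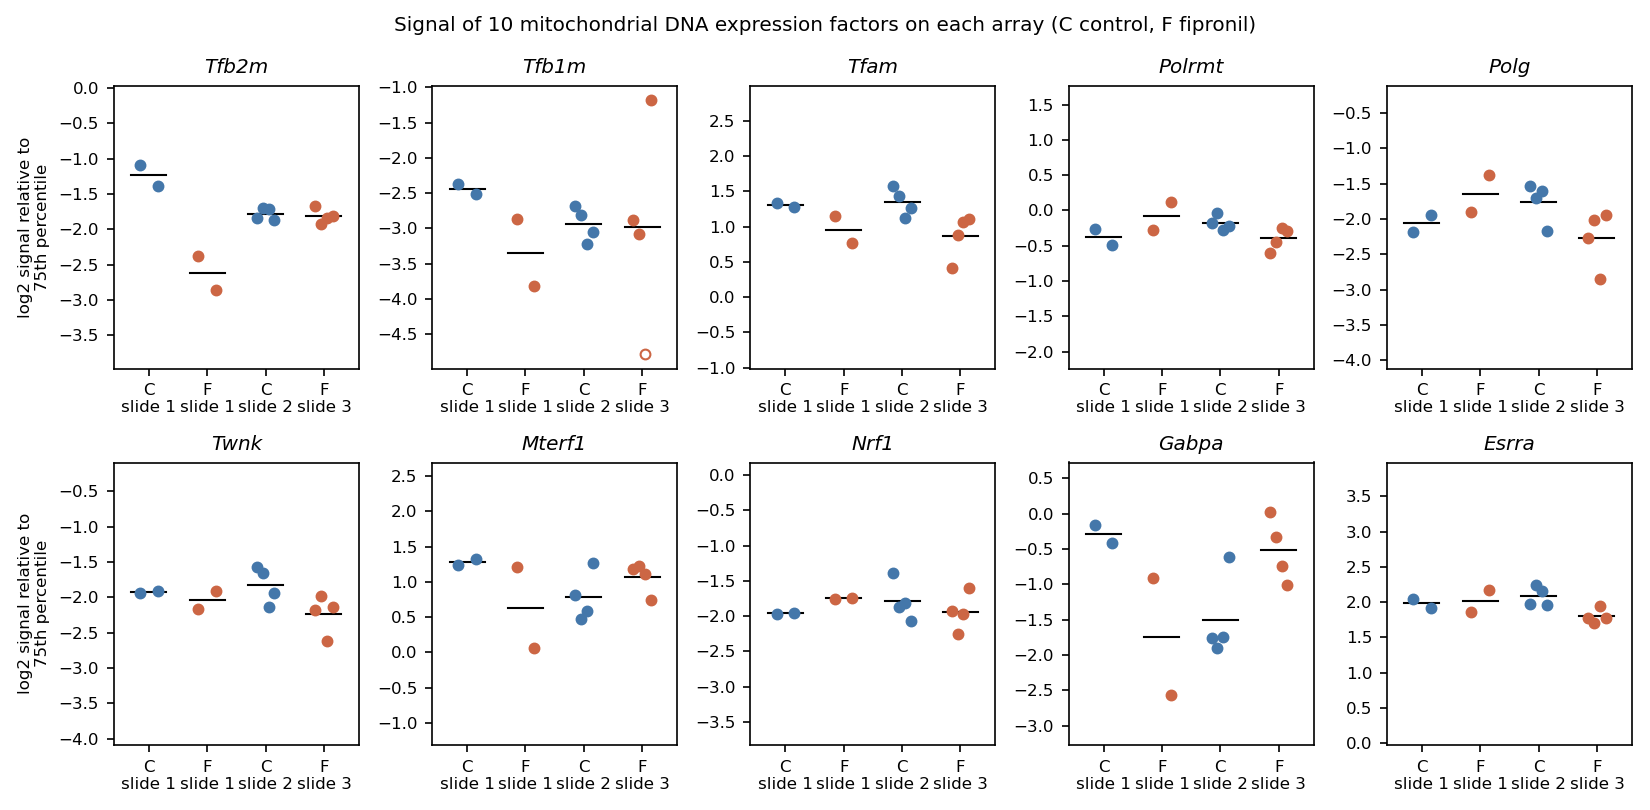
Signal of each of the 10 genes on each of the 12 arrays, as log2 relative to the array's 75th percentile, grouped by treatment (C, control; F, fipronil) and slide; horizontal bars are group means, the open circle is an array not well above background, and each panel has its own range. Tfb2m has 2 high control arrays and 2 low fipronil arrays on slide 1, with the other 8 arrays between -1.93 and -1.67.

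Among all 13542 tested genes the slide 1 difference of Tfb2m was the 233rd lowest. With slide as a fixed block, limma called 12 genes at an adjusted p under 0.05, which is 0.0886% of those tested, and Tfb2m was 1 of the 12. That fit takes the treatment difference from slide 1 alone, the same difference that was known when the genes were chosen, so nothing is read from the call. Over 12 arrays without the block, limma called 678 genes, 5.01% of those tested, and 0 of the 10 members. At an unadjusted p under 0.05 the count was 3 members, beside 25% of all genes. After normexp background correction with 75th percentile scaling, which called 6776 of 13542 genes, 3 members were called (Tfam, Nrf1 and Esrra). Without a detection filter, which called 16313 of 36181 genes, 1 member was called, Tfam. The genes were chosen with this contrast known, so nothing is read from these counts. With slide as a random block it called 21 genes, 0.155%, and 0 members.

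Within 1 treatment, too, the signals of Tfb2m differed between slides. Control arrays of slide 2 were lower in Tfb2m than those of slide 1 by 0.55 ± 0.16 on the log2 scale (difference -0.55), and fipronil arrays of slide 3 were higher than those of slide 1 by 0.80 ± 0.16. Over all genes, limma called 0 genes between slides 2 and 1 in controls, with 2080 at an unadjusted p under 0.05 (15.4%), among which were Tfb2m and Gabpa. It called 1013 genes (7.48%) between slides 3 and 1 with fipronil, among which was Tfb2m. The slide 1 difference, known when the members were chosen, is partly made up of these slide differences. Nothing is therefore read from a member being among these genes. Both contrasts use the slide 1 arrays again, and the second fell to 20 genes without fipronil replicate 8.

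Polrmt, the polymerase itself, overlapped between groups on every slide comparison. Its control signals ran from -0.49 to -0.04 with a median of -0.24, and its fipronil signals from -0.60 to 0.13 with a median of -0.28. The difference was -0.04 ± 0.13 over 12 arrays, 0.30 on slide 1 and -0.22 between slides 3 and 2. Over 12 arrays the polymerase thus differed by less than the spread between arrays.

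Tfam, the packaging and initiation factor, had a difference of the same sign and similar size on all slides. On slide 1 the controls were at 1.34 and 1.28 and the fipronil arrays at 1.15 and 0.76, so the groups did not overlap. On slide 2 the controls were at 1.57, 1.44, 1.12 and 1.27, and on slide 3 the fipronil arrays at 0.41, 0.88, 1.06 and 1.11, again without overlap. Over 12 arrays 1 fipronil array, replicate 7 at 1.15, exceeded the lowest control, replicate 7 at 1.12. The difference was -0.44 ± 0.14 over 12 arrays, -0.35 on slide 1 and -0.48 between slides 3 and 2. Without fipronil replicate 8 the slide 1 difference was -0.16, and without replicate 7 it was -0.54.

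Of the 3 initiation factors, Tfb2m was lower with fipronil on slide 1, with a small difference between slides 3 and 2, Tfam was lower in both comparisons, and Polrmt had opposite signs in them. Across the 12 arrays the signals of Tfb2m correlated with those of Tfam at r = 0.34 and with those of Polrmt at r = -0.53. These correlations describe arrays that share slides and treatment.

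Tfb1m, a paralogue of Tfb2m that acts as a methyltransferase on the small mitochondrial ribosomal RNA, was measured with little precision. Its probe was well above background on 11 of 12 arrays, the exception being fipronil replicate 3 at -4.78. The other slide 3 arrays were at -2.88, -3.08 and -1.18, so replicate 4 was the highest and replicate 3 the lowest of all 12. On slide 1 the controls were at -2.37 and -2.52 and the fipronil arrays at -2.87 and -3.81. The difference was -0.33 ± 0.44 over 12 arrays and -0.90 ± 0.81 on slide 1. Leaving out fipronil replicate 3 gave 0.0098 over the remaining arrays, and leaving out replicate 4 gave -0.71. Within treatment and slide its SD was 0.94, above that of 98.6% of tested genes, whereas Tfb2m had 0.17, above that of 18.8%.

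Mterf1 encodes a factor that binds downstream of the ribosomal RNA genes and ends transcription there. Its main probe gave control signals from 0.47 to 1.32 with a median of 1.03, and fipronil signals from 0.06 to 1.22 with a median of 1.14. The groups overlapped, and 11 of 12 arrays lay at or above 0.47. The single low array was fipronil replicate 8 on slide 1, at 0.06, beside replicate 7 on the same slide at 1.21. The difference was -0.03 ± 0.22 over 12 arrays and -0.64 on slide 1. The latter became -0.07 without replicate 8 and -1.22 without replicate 7. The other 3 probes had slide 1 differences of -0.54, -0.65 and -1.29 and 12-array differences of -0.17, -0.24 and -0.93. The probe with the last value of each, A_44_P1364381, was well above background on 6 control arrays and 1 fipronil array, so its differences were not measured on both sides.

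Polg, the catalytic subunit of the mitochondrial DNA polymerase, had opposite signs in the slide comparisons. Its controls ran from -2.18 to -1.53 with a median of -1.83, and its fipronil arrays from -2.85 to -1.38 with a median of -1.98. The highest of all arrays was fipronil replicate 8 and the lowest fipronil replicate 3. The difference was -0.21 ± 0.21 over 12 arrays, 0.42 on slide 1 and -0.52 between slides 3 and 2.

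Twnk, the replicative helicase known as Twinkle, was lower with fipronil by an amount about as large as its spread. Controls ran from -2.13 to -1.57 with a median of -1.92, and fipronil arrays from -2.62 to -1.92 with a median of -2.15, so the groups overlapped. The difference was -0.31 ± 0.14 over 12 arrays (0.25 after normexp with 75th percentile scaling), -0.12 on slide 1 and -0.41 between slides 3 and 2.

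Gabpa, the DNA-binding subunit of GABP, spread most among the nuclear regulators. On slide 1 the controls were at -0.16 and -0.42 and the fipronil arrays at -0.91 and -2.57. On slide 2 the controls were at -1.76, -1.90, -1.74 and -0.61, and on slide 3 the fipronil arrays at 0.02, -0.33, -0.73 and -1.01. Fipronil arrays were thus lower than controls on slide 1, while slide 3 was higher than slide 2 on average. The difference was -1.45 ± 0.54 on slide 1, the 193rd lowest of 13542 genes, and 0.99 between slides 3 and 2, leaving 0.18 ± 0.43 over 12 arrays. Without fipronil replicate 8 the slide 1 difference was -0.62, and without replicate 7 it was -2.28. The SD within treatment and slide was 0.62, above that of 93.0% of genes.

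Nrf1, nuclear respiratory factor 1, was level between groups over 12 arrays, although on slide 1 both fipronil arrays lay above both controls. Its control signals ran from -2.08 to -1.39 with a median of -1.91, and its fipronil signals from -2.26 to -1.61 with a median of -1.84. The difference was -0.03 ± 0.14 over 12 arrays (0.27 after normexp with 75th percentile scaling), 0.21 on slide 1 and -0.15 between slides 3 and 2. A second Nrf1 probe, A_44_P622841, was well above background on 2 control arrays and on 0 fipronil arrays, and no fold could be bounded from it.

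Esrra, the receptor ERRα, was the least variable of the 10 within treatment and slide, with an SD of 0.14. Controls ran from 1.92 to 2.25 and fipronil arrays from 1.71 to 2.18, with medians of 2.01 and 1.82. Slide 3 arrays lay at 1.77, 1.71, 1.95 and 1.78, all below the 4 arrays of slide 2. The difference was -0.18 ± 0.11 over 12 arrays, 0.04 on slide 1 and -0.28 between slides 3 and 2.

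Leaving out either fipronil array of slide 1 moved the slide 1 differences by the same amount in opposite directions. Without fipronil replicate 8, the difference was -1.14 for Tfb2m, -0.43 for Tfb1m, 0.09 for Polrmt, 0.16 for Polg and -0.24 for Twnk. Without fipronil replicate 7 it was, in the same order, -1.62, -1.37, 0.50, 0.68 and 0.0077. Esrra had -0.12 without replicate 8 and 0.20 without replicate 7, in place of 0.04. Nrf1 had 0.20 and 0.22, in place of 0.21. Each of these values rests on 1 fipronil array.

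**Figure D2:**
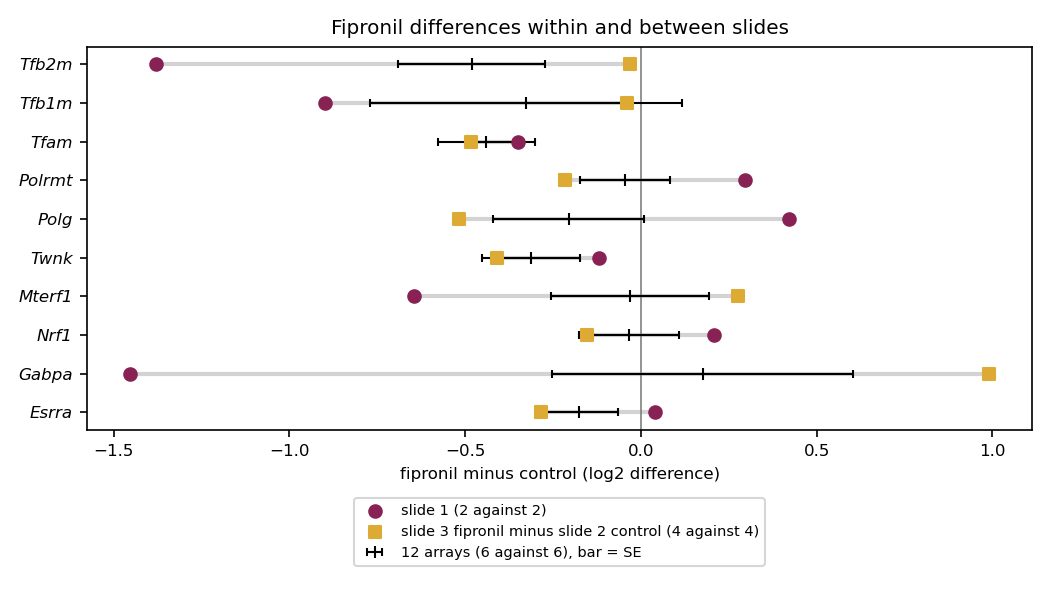
Fipronil minus control, as a log2 difference, for the 10 genes: circles are slide 1 (2 against 2 arrays), squares are slide 3 fipronil minus slide 2 control (4 against 4), and crossed bars are the 12-array difference with its SE. Tfam and Twnk have all 3 values below 0. So do Tfb2m and Tfb1m, but between slides 3 and 2 they are near 0, at -0.03 and -0.04. Gabpa runs from -1.45 on slide 1 to 0.99 between slides 3 and 2.

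Taken as a list, 9 of the 10 members had a 12-array difference below 0, beside 59.7% of all tested genes, but after normexp background correction with 75th percentile scaling only 4 of 10 did, since Tfb1m, Polrmt, Polg, Twnk and Nrf1 joined Gabpa above 0. The median difference of the members was -0.19, beside -0.08 for all genes. On slide 1 the corresponding values were 6 of 10 against 51.6%, and medians of -0.23 against -0.02. Between slides 3 and 2 they were 8 of 10 against 58.5%, and medians of -0.19 against -0.10.

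The groups did not overlap over 12 arrays in 0 members, beside 4.18% of genes. On slide 1, with 2 arrays against 2, they did not overlap in 7 members, beside 53.7% of genes. Of these, 5 were lower with fipronil (28.5% of genes), namely Tfb2m, Tfb1m, Tfam, Mterf1 and Gabpa, and 2 were higher (25.2%), namely Polg and Nrf1. Slide 3 fipronil lay wholly below slide 2 control in Tfam and Esrra, 2 of 10 members, beside 16.4% of genes, and wholly above it in 0 members, beside 10.5%.

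**Figure D3:**
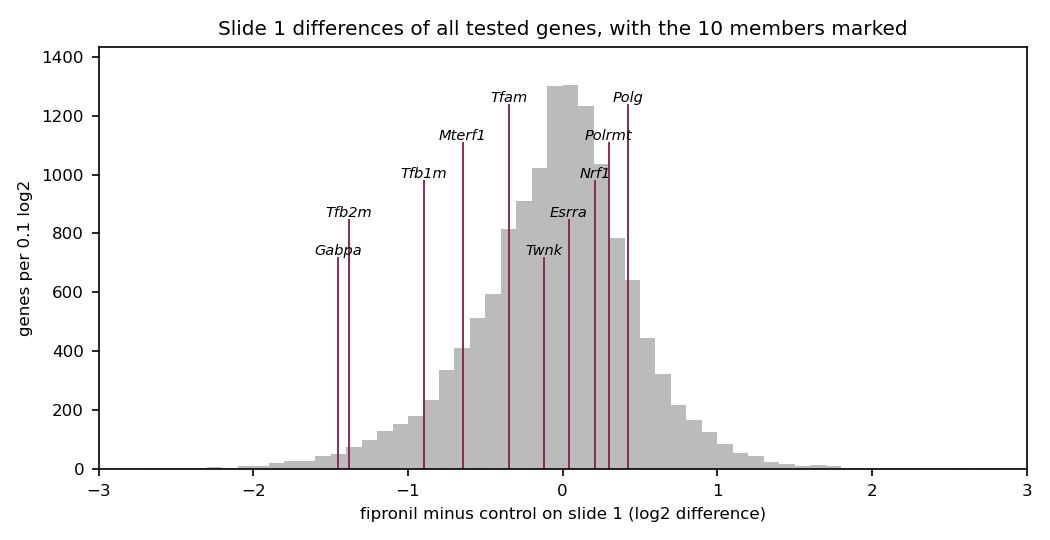
Slide 1 differences (fipronil minus control, log2) of all 13542 tested genes as counts per 0.1 log2, with vertical lines at the 10 members; line heights only separate the names. Gabpa and Tfb2m lie in the lower tail at -1.45 and -1.38, and Esrra and Twnk near the middle at 0.04 and -0.12.

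Tfb2m and Gabpa each share a promoter region with a divergent neighbour in RefSeq, which shows whether a neighbour read on the same arrays had the same pattern. Cnst starts 100 bases from Tfb2m and encodes consortin, a factor in the transport of connexins. Its slide 1 signals were -3.05 and -3.07 in controls and -3.18 and -3.02 with fipronil, so the groups overlapped where those of Tfb2m did not. The slide 1 difference of Cnst was -0.04 and its 12-array difference -0.37 ± 0.19 (limma, adjusted p = 0.238). Its probe was dim, well above background on 9 of 12 arrays. Atp5pf, a subunit of ATP synthase, starts 163 bases from Gabpa. It had controls from 3.34 to 3.50, slide 1 fipronil arrays at 3.26 and 3.17, and slide 3 arrays from 3.63 to 3.77. Its differences were -0.21 on slide 1, 0.30 between slides 3 and 2 and 0.13 ± 0.12 over 12 arrays (limma, adjusted p = 0.552), the same signs as in Gabpa at a smaller size.

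Genes whose signal followed Tfb2m most closely over the 12 arrays were Gpn3 (r = 0.94), Actr2 (r = 0.93), Hapln1 (r = 0.93), Ncbp1 (r = 0.92) and Hnrnpk (r = 0.91). The slide 1 differences of Gpn3, Actr2, Ncbp1 and Hnrnpk were -0.88, -0.64, -0.56 and -0.92. They were picked for following Tfb2m, whose extremes lie on slide 1, so these differences follow largely from the choice. Hapln1, a linker protein of the extracellular matrix, was well above background on 6 control arrays and 0 fipronil arrays. It passed the filter through the controls alone. Its difference was therefore not measured on both sides, and no fold is read from it. After the mean of each treatment and slide was subtracted, other genes came first, namely Oxct1 (r = 0.90), Slc20a1 (r = 0.90), Chek2 (r = 0.89), Rai14 (r = 0.88) and Amd1 (r = 0.86). Among the members the closest over the 12 arrays was Gabpa (r = 0.59), followed by Mterf1 (r = 0.53) and Tfb1m (r = 0.37). These values describe 12 arrays that share slides, and no test was made of them.

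Other genes of the same system were taken from 5 lists that hold 70 tested genes. Of these 70, 3 were called over 12 arrays by limma, 2 higher and 1 lower with fipronil, which is 4.29% beside 5.01% of all genes (2.24% higher and 2.77% lower, in each case with 0 members). With slide as a fixed block 0 of the 70 were called, with 17 at an unadjusted p under 0.05, beside 2578 of the 13542 genes. All 3 calls were lost with slide as a fixed or as a random block, and the share over the 70 was near the background.

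Of 5 tested genes for elongation and termination of mitochondrial transcription, 1 was called, Nsun4, which encodes a methyltransferase of the small ribosomal RNA and a partner of MTERF4. Its controls ran from -0.41 to -0.06 and its fipronil arrays from -0.998 to -0.33, where fipronil replicate 8 was the only array inside the control range. It fell by 0.49 ± 0.13 on the log2 scale (difference -0.49, limma adjusted p = 0.0450), with -0.16 on slide 1, and the call was lost in 10 of 12 fits that left out 1 array, all but those without fipronil replicate 7 or 8 (adjusted p up to 0.102). The call of Nsun4 was also lost with median scaling (limma, adjusted p = 0.0702). With the mean of its probes the difference was -0.39 and the call was lost as well (limma, adjusted p = 0.0981). The other 4 genes of this list, Mrpl12, Tefm, Mterf3 and Mterf4, had differences of -0.35, -0.38, -0.16 and -0.04 and did not pass.

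Among 18 genes for mitochondrial DNA replication and nucleotide supply limma called 0, with 4 at an unadjusted p under 0.05, beside 25% of all genes. Suclg1, a subunit of succinyl-CoA ligase, and Ssbp1, the single-stranded DNA-binding protein of the replisome, are given by a rule that takes the brightest probes, which says nothing of their expression relative to other genes. Suclg1 had a difference of 0.06 over 12 arrays. Ssbp1 had -0.01 over 12 arrays and -0.77 on slide 1, where fipronil replicate 8 was at 0.90 and replicate 7 at 1.84. Differences of the 18 ran from -0.57 to 0.24, with a median of -0.13.

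Of 25 genes for processing, modification and decay of mitochondrial RNA, limma called 2, Trit1 and Fastkd1, both higher with fipronil. Over the list 19 of 25 were lower, beside 59.7% of all genes. The median was -0.23, beside -0.08 for all genes, and the range ran from -0.59 to 0.99. At an unadjusted p under 0.05 there were 7, of which 5 were lower, beside 25% of all genes in either direction. Trit1, which adds isopentenyl groups to transfer RNAs, had controls from -4.07 to -3.39 and fipronil arrays from -3.47 to -2.22, with the 2 slide 1 fipronil arrays lowest at -3.29 and -3.47. Its difference was 0.99 ± 0.22 (limma, adjusted p = 0.0267) and 0.34 on slide 1. With fipronil, slide 3 arrays were higher than slide 1 arrays by 0.91. Its probe was well above background on 5 control and 6 fipronil arrays. Fastkd1, a mitochondrial RNA-binding protein of the FASTK family, had controls from -3.36 to -2.78 and fipronil arrays from -2.79 to -1.95. Its difference was 0.64 ± 0.15 (limma, adjusted p = 0.0339) and 0.49 on slide 1. The call of Trit1 was lost in 6 of 12 fits that left out 1 array, namely control replicates 2, 6 and 7 and fipronil replicates 1, 3 and 4 (adjusted p up to 0.0638). That of Fastkd1 was kept without fipronil replicate 2, 7 or 8 and lost in the other 9 (adjusted p up to 0.0772). The call of Fastkd1 was also lost with median scaling (limma, adjusted p = 0.0897).

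Of 9 coactivators and partners of NRF1, GABP and ERRα, limma called 0, with 1 at an unadjusted p under 0.05, beside 25% of all genes. That 1 was Yy1, which was well above background on 6 control and 0 fipronil arrays. Nrip1 (5 control arrays and 1 fipronil array) and Gabpb2 (6 and 3) also passed the filter mainly through the controls, so no count is read from the 9. The 6 that were well above background on all arrays, Gabpb1, Pprc1, Creb1, Sirt1, Hcfc1 and Sp1, had slide 1 differences from -1.08 to -0.32. Between slides 3 and 2 they had, in the same order, differences of -0.23, 0.02, 0.90, 0.34, 0.21 and 0.27. Hcfc1, a chromatin cofactor, had -0.65 on slide 1 and -0.07 over 12 arrays. Sp1, a factor that binds GC boxes, had -0.42 on slide 1 and 0.04 over 12 arrays, or -0.16 with the mean of its probes.

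Of 13 nuclear respiratory genes with described NRF1 or GABP sites, limma called 0, with 3 at an unadjusted p under 0.05, beside 25% of all genes. Their median difference was -0.05. Cox4i1, a subunit of cytochrome c oxidase, differed by 0.12. Cox6a1, another subunit, differed by 0.93, but control replicate 3 was at 1.37 while the other 11 arrays were at 6.57 or above, and the difference was 0.04 without that array.

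**Figure D4:**
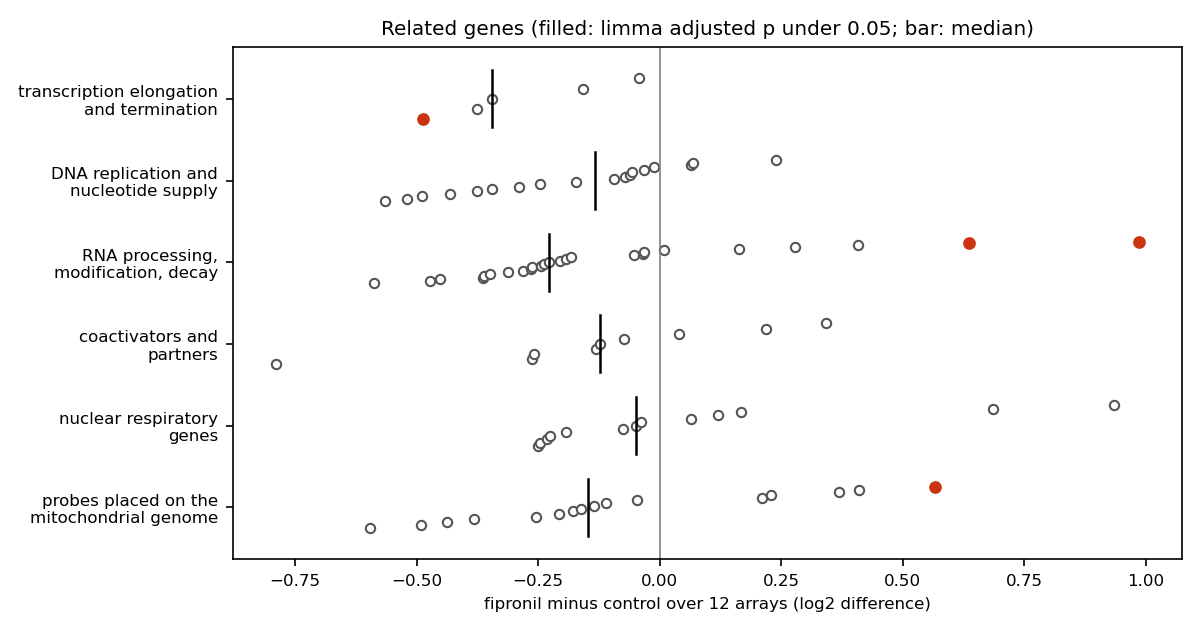
Fipronil minus control over 12 arrays, as a log2 difference, for the 70 tested genes of 5 related lists and for the 16 probes that the files place on the mitochondrial genome; filled points had a limma adjusted p under 0.05 and vertical bars are medians. Filled points are Nsun4 in the top row, Fastkd1 and Trit1 in the third and 1 probe in the last.

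The files place 16 probes on the mitochondrial genome (rn4), 12 on the plus and 4 on the minus strand. For 1 of the latter, A_44_P277834, they give the name Tpm3, a nuclear gene, so its target is uncertain. They were taken by position after a search by gene symbol had matched 0 probes, and genes are not named for them here. Of the 16 probes 11 were lower with fipronil over 12 arrays and 11 on slide 1, beside 59.7% and 51.6% of all tested genes. Their medians were -0.15 and -0.08, beside -0.08 and -0.02 for all genes. Median scaling, however, left 7 of the probes lower on slide 1, with a median of 0.03. The 12-array differences ran from -0.60 to 0.57.

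At the probe level limma called 863 of 16291 probes (5.3%) and 1 of these 16, A_44_P428227 at M:465-524 on the plus strand. Its controls were at 5.96 and 5.96 on slide 1 and at 5.32, 5.41, 5.49 and 6.07 on slide 2, and its fipronil arrays ran from 6.06 to 6.46. The difference was 0.57 ± 0.15 (limma, adjusted p = 0.0459) over 12 arrays and 0.26 on slide 1. With slide as a fixed block 0 of the 16 were called, and 0 had an unadjusted p under 0.05, beside 18.9% of all probes. On slide 1 the 16 differences ran from -0.72 to 0.26. The lowest, of A_44_P493894, rested on fipronil replicate 7 (4.58, against 5.79 in replicate 8), and leaving that array out gave -0.12.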

How the data were processed

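Total RNA of 12 N27 samples was hybridised to one-colour Agilent arrays. Per the submitters' processing notes, the spots were read by Agilent Feature Extraction, version 10.7. Processed, mean and background signals are intensities and the background and outlier flags are values of 0 or 1, per the file headers. The deposited series table holds log2 values that the authors quantile-normalised, per the labels, and served as an alternative. Groups came from the treatment labels and slides from the array identifiers.

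Here log2 processed signals were scaled to each array's 75th percentile. Control spots were left out, as were outlier spots unless all spots of the probe were marked, and probes well above background on at least 6 arrays were kept (16291 of 45598). Each gene was read by its brightest kept probe. Symbols came from the files and RefSeq (GRCr8). Groups were compared with lmFit and eBayes (limma 3.58.1, R 4.3.3) and Benjamini-Hochberg adjustment over 13542 genes, at an adjusted p of 0.05. The fits were tested on simulated data. Alternatives were other normalisations and background corrections (normexp, offset 50), other detection filters, the mean of a gene's probes, slide or replicate number as a block, slide 1 alone and leaving out each array. The number of arrays limits the precision.

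The members and lists were chosen with earlier results of these data known. All members are named; of each list up to 3 called genes, or the 2 with the highest signal where none was called; and the 5 genes most correlated with Tfb2m, over arrays and after subtracting treatment and slide means. Other genes named, such as Mrpl12, Cnst and Atp5pf, were chosen after their values were seen or by position.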

Additional observations from a re-analysis of the deposited data

Results flagged for a closer look

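Outlying arrays were sought among the 6 arrays of each group for 35 features, the 10 members, the 9 named related genes and the 16 mitochondrial probes. The gap to the nearest array, as a share of the group's range, had to exceed Dixon's critical value for 6 arrays, which chance gives in about 1 of 20 groups, and 2 of 70 groups met it. Cox6a1 was at 1.37 in control replicate 3, with the nearest control array at 6.59, a gap of 0.936 of the range. The mitochondrial probe A_44_P493894 at M:6402-6461 was at 4.90 in control replicate 5, with the nearest control array at 5.90, a gap of 0.783 of the range. No group of a member met it.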

How the results depend on the processing

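The 12-array difference of Tfb2m stayed below 0 in all 24 alternatives, but was -0.0027 after normexp with 75th percentile scaling and -1.38 with slide as a fixed block or slide 1 alone; leaving out 1 array gave -0.56 to -0.33. Its slide 1 difference was -0.72 under both normexp settings and ran from -1.62 to -1.14 with 1 array left out. The members' median was -0.29 with median scaling, 0.13 after normexp with 75th percentile scaling and -0.085 after normexp with quantile normalisation, and -0.23 to -0.061 with 1 array left out (the last without fipronil replicate 3). Relative to the median of all genes, which was 0.17 after normexp with 75th percentile scaling, -0.18 with median scaling and -0.08 in the fit reported, it was -0.04, -0.11 and -0.11. Over all genes the 678 calls became 6776 after normexp with 75th percentile scaling and 16313 of 36181 genes without a detection filter. They became 12 and 21 with slide as a fixed or random block, and 0 on slide 1 alone (2140 at an unadjusted p under 0.05 by limma). Without 1 array they ran from 228 (fipronil replicate 3) to 2022 (fipronil replicate 8). Of the calls 44.7% were higher, against 25.6% with median scaling, 75.5% after normexp with 75th percentile scaling and 92.5% without a filter. The 3 related genes called became 31 and 6 after normexp with 75th percentile or quantile scaling, 18 without a filter, 6 with probes above background on all 12 arrays, 0 with slide as a fixed or random block or on slide 1 alone (17, 12 and 15 unadjusted), and 0 to 8 without 1 array. Genes called between slides 2 and 1 in controls became 2122 after normexp with 75th percentile scaling and 110 without a filter, and 0 to 19 without 1 array; between slides 3 and 1 with fipronil they became 5463 and 10508, and 20 to 1210. Numbers 2, 3, 7 and 8 occur in both groups, but the deviations from group means gave r of 0.43, 0.08, -0.11 and -0.31 within these numbers, so they were not taken to pair the samples; with the replicate block limma called 0 genes (2164 unadjusted) and 0 related genes (9 unadjusted), with Tfb2m at -0.74. The slide 1 differences of the members under other settings were added after seeing the data. The causes of these changes were not tested. Dim probes limit Tfb1m, and A_44_P1112228 was not well above background on any array.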
